A study of Homo sapiens with 4 samples.

Results

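The long noncoding RNAs (lncRNAs) followed here one library at a time were MALAT1, NEAT1, KCNQ1OT1, TUG1, OIP5-AS1 and LINC00174. They are 6 of the 63677 genes counted, and all 6 were among the 15116 genes with enough reads to be tested. In the deposited counts they carry the Ensembl identifiers ENSG00000251562, ENSG00000245532, ENSG00000269821, ENSG00000253352, ENSG00000247556 and ENSG00000179406, in that order. They were chosen by their values in these libraries, since MALAT1 moved in opposite directions in the 2 pairs of libraries, so their changes with the antisense oligonucleotide (ASO) are given as a description, without a test. The RNA came from HCT116, an established human colorectal cancer line, transfected with ASOs. In the first group, with 2 libraries, the cells received the anti-GAA ASO, a 21-nt oligonucleotide of TTC repeats that pairs with GAA repeats in RNA and recruits RNase H. In the second group, also with 2 libraries, the cells received a control ASO, and no untreated library was analysed here. The sample labels give 48 h of transfection and a total RNA kit, whereas the study's methods give a shorter time and a stranded kit for polyadenylated RNA, a difference that matters for RNAs without a poly(A) tail. Replicate 1 of both groups carries the number 232 in the sample names and replicate 2 the number 234, and the libraries of one number are called pair 1 and pair 2 here. No label states what the numbers mark. The study's methods speak of duplicate experiments, but neither they nor the labels say whether the 2 libraries of a group came from separate cultures, so any p may measure technical spread only.

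MALAT1 is an abundant lncRNA of nuclear speckles, the bodies that store splicing factors, and its 3′ end is made by RNase P cleavage and closed by a triple helix in place of a poly(A) tail. NEAT1 is the scaffold of paraspeckles, and is made as a short polyadenylated form and a long form that ends as MALAT1 does. KCNQ1OT1 is an imprinted antisense RNA that silences neighbouring genes in cis, TUG1 is found both in the nucleus and the cytoplasm, and OIP5-AS1, known as Cyrano, binds the microRNA miR-7. RNase H is active in the nucleus, so a nuclear RNA can be reached by an ASO of this kind. Whole-cell RNA was sequenced here, so where each RNA resided was not measured, and fewer molecules per cell cannot be told apart from fewer cells that carry the RNA.

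Because the ASO was aimed at GAA repeats, the stretch of each lncRNA closest to its target is shown first. These are the 21 nt of the longest GENCODE 44 transcript (GRCh38) with the most bases in common with 7 GAA triplets in register. They are written 5′ to 3′ on the RNA strand as DNA letters, with matching bases in capitals. RBM25 and HSP90AA2P, which return in the results, are shown for comparison and were picked with their low values in pair 2 in view. Other genes that fell there, such as ENSG00000237493 and DNAJC2, had longest GAA runs of only 8 nt.
MALAT1: GAAaAgtAgGAAGcAGAAGAA
NEAT1: aAAaAAaAAaAccAAGAAGAA
KCNQ1OT1: GAAttAGAAaAAGAAGAAcAA
TUG1: GcAGAtGAgcAAGAAactGAA
OIP5-AS1: GAAaAAtAAttAcAAtAAGAA
LINC00174: GcAGgAaAAGAAGgtcAAGAc
RBM25: GAAGAAGAAGAAGgAaAAGAA
HSP90AA2P: GAAGAAGAAaAAGAAaAAGAA

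The MALAT1 stretch lies in the single exon of its longest transcript at chr11:65499768-65499788, on the plus strand, and matches 16 of 21 bases. NEAT1 matched 15 at chr11:65440854-65440874 on the plus strand, and KCNQ1OT1 matched 17 at chr11:2621923-2621943 on the minus strand, each again within a transcript of 1 exon. The other 3 stretches were exonic as well. TUG1 matched 14 bases at chr22:30977480-30977500 on the plus strand, OIP5-AS1 matched 15 at chr15:41299421-41299441 on the plus strand, and LINC00174 matched 14 at chr7:66400944-66400964 on the minus strand. The exonic stretch of RBM25, at chr14:73097073-73097093 on the plus strand, matched 19 bases, and so did that of HSP90AA2P, at chr11:27890290-27890310 on the minus strand.

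None of the 6 lncRNAs held an unbroken GAA run of 12 nt or more, in the longest transcript or in the gene body with its introns. The longest runs in the transcripts were 9 nt in NEAT1, KCNQ1OT1 and TUG1, 8 nt in MALAT1 and OIP5-AS1, and 6 nt in LINC00174. With introns included, they reached 10 nt in OIP5-AS1 and 11 nt in LINC00174. Of the 14751 tested genes with a transcript sequence, 3.21% had such a run within the longest transcript and 15.1% within the gene body. A stretch as close to the target as that of MALAT1, with 16 matches or more, was found in 17.4% of them, and one as close as that of KCNQ1OT1, with 17 or more, in 6.91%. These shares were not matched for length. A longer transcript, such as the 91667 nt of KCNQ1OT1, offers more stretches to compare. These searches describe letters in the sequence and do not show that the ASO bound there.

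The 4 libraries held 10538284 to 17894953 counts on genes. Markers of a colorectal epithelial line were present, with EPCAM at 628.5 to 740.1 CPM, KRT19 at 1114 to 1639 CPM and CDX2 at 17.3 to 23.0 CPM, although CDX1 had 0 counts in every library. CD3E and PECAM1 had 0 counts, PTPRC had 1 to 5, and COL1A1 and VIM lay at 4.24 to 14.6 CPM. The 6 lncRNAs together took between 0.0242% and 0.0837% of the counts of a library. Throughout, CPM is the count of a gene set to a common library size by TMM, a normalization that makes the bulk of genes equal between libraries.

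MALAT1 showed the widest spread of the 6. With the control ASO it stood at 363.5 CPM in replicate 1 and 438.4 CPM in replicate 2, from 5575 and 7434 counts. With the anti-GAA ASO it stood at 727.3 CPM in replicate 1 and 94.4 CPM in replicate 2, from 7199 and 1680 counts. The 2 control libraries lay between the 2 anti-GAA libraries, the first of which was the highest of all and the second the lowest.

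Within pair 1, MALAT1 was 2.00-fold higher with the anti-GAA ASO, with an exact 95% counting interval of 1.93 to 2.07 (Clopper-Pearson). Within pair 2 it was at 0.215 of the control level, with an interval of 0.204 to 0.227, or 4.64-fold lower. These intervals cover counting error only, and with single libraries there is no replicate of either ratio. Between the 2 control libraries MALAT1 differed by 1.21-fold (interval 1.16 to 1.25), whereas between the 2 anti-GAA libraries it differed by 7.70-fold. The fit of all 4 libraries without a block gave a log2 fold change of 0.03, with a standard error (SE) of 0.76. The group means were 410.9 CPM with the anti-GAA ASO and 401.0 CPM with the control ASO. With the replicate number as a block, the same 4 libraries gave −0.60. The value also depended on which libraries entered the fit. It became −2.08 without anti-GAA replicate 1 and 0.86 without anti-GAA replicate 2.

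The size of the MALAT1 ratios can be read against all genes. A change of at least 2-fold upward in pair 1 was seen for 1.94% of the tested genes and downward for 3.86%, and in pair 2 these shares were 1.13% and 4.35%. Being at least 1.5-fold higher in pair 1 and at least 1.5-fold lower in pair 2 was rarer, at 0.589% (89 genes). Among the 1984 genes that averaged 100 CPM or more, whose median ratio of highest to lowest library was 1.37, MALAT1 had the third-widest ratio (rank 3), and only 1 of them lay lower in pair 2. These ranks describe the pattern for which MALAT1 was selected and are no evidence of their own.

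**Figure D1:**
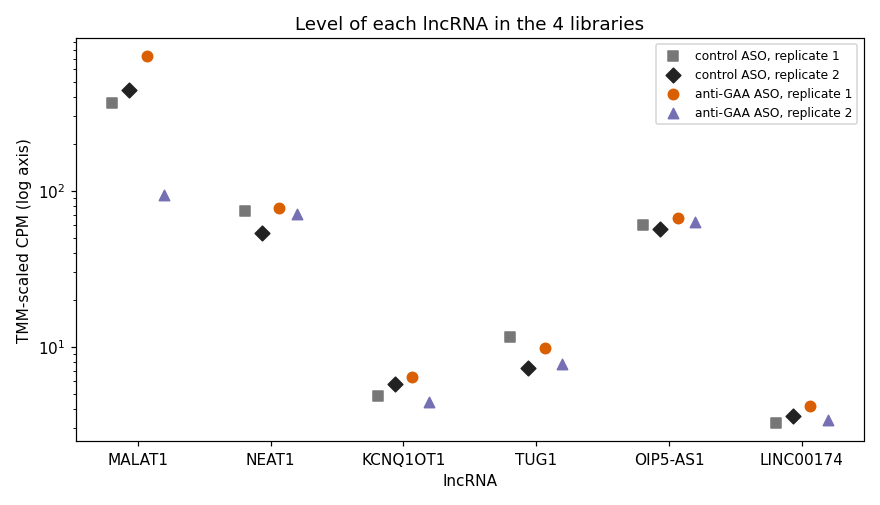
TMM-scaled CPM (log axis) of the 6 lncRNAs in the 4 libraries, with squares and diamonds for the control ASO and circles and triangles for the anti-GAA ASO, 1 symbol per library. For MALAT1 the anti-GAA libraries lie at 727.3 and 94.4 CPM, above and below both controls, whereas the 4 symbols of each other lncRNA lie close together.

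NEAT1, in contrast, varied little. It stood at 73.7 and 53.4 CPM in the control libraries and at 77.0 and 70.3 CPM in the anti-GAA libraries, replicate 1 first. Control replicate 2 was the lowest, and control replicate 1 lay between the anti-GAA libraries, so the groups overlapped. The ratio was 1.04 in pair 1 (interval 0.951 to 1.14) and 1.32 in pair 2 (1.21 to 1.44), while the control libraries themselves differed by 1.38-fold. Its log2 fold change was 0.21 (SE 0.23), and it was 0.46 without control replicate 1 and 0.006 without control replicate 2. NEAT1 and MALAT1 lie 52100 nt apart on chromosome 11. In pair 2 NEAT1 was 1.32-fold higher and MALAT1 was 4.64-fold lower. Counts per gene do not separate the short and long forms of NEAT1, so its form without a poly(A) tail was not measured on its own.

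OIP5-AS1 was the steadiest of the 6. It stood at 59.8 and 56.6 CPM in the control libraries and at 66.3 and 63.0 CPM in the anti-GAA libraries. Both anti-GAA libraries lay above both controls, as did those of 15.5% of all tested genes, so this position is not unusual. The ratio was 1.11 in pair 1 (1.00 to 1.23) and 1.11 in pair 2 (1.02 to 1.22), and the log2 fold change was 0.15 (SE 0.19).

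TUG1 had few reads, 97 to 178 per library. It stood at 11.6 and 7.31 CPM in the control libraries and at 9.80 and 7.76 CPM in the anti-GAA libraries. Its levels followed the replicate number more than the ASO, with both replicate 1 libraries above both replicate 2 libraries. The control libraries differed by 1.59-fold (control replicate 2 at 0.630 of replicate 1, interval 0.497 to 0.797), and the ratio to the control was 0.844 in pair 1 and 1.06 in pair 2, with both intervals spanning 1. The log2 fold change was −0.11 (SE 0.33), and it turned to 0.25 without control replicate 1.

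KCNQ1OT1 and LINC00174 were counted by 41 to 98 reads per library. KCNQ1OT1 stood at 4.83 and 5.78 CPM in the control libraries and at 6.36 and 4.44 CPM in the anti-GAA libraries. Its order over the 4 libraries was therefore that of MALAT1, with anti-GAA replicate 1 highest and anti-GAA replicate 2 lowest. Its ratios were far smaller, 1.32 in pair 1 (0.927 to 1.87) and 0.768 in pair 2 (0.564 to 1.04), and both intervals spanned 1. LINC00174 stood at 3.26 and 3.60 CPM in the control libraries and at 4.14 and 3.37 CPM in the anti-GAA libraries, with ratios of 1.27 (0.820 to 1.96) and 0.937 (0.645 to 1.36). Its groups overlapped and the difference was not detectable at this depth. The log2 fold changes were 0.01 for KCNQ1OT1 (SE 0.34) and 0.12 for LINC00174 (SE 0.34).

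Read together, 3 of the 6 lncRNAs (MALAT1, KCNQ1OT1 and LINC00174) were higher in pair 1 and lower in pair 2, as were 17.7% of all tested genes. NEAT1 and OIP5-AS1 were higher in both pairs, as were 31.8%, and TUG1 was lower in pair 1 and higher in pair 2, as were 20.5%. For MALAT1 alone did both within-pair intervals exclude 1 on opposite sides. When libraries were scaled to their total counts in place of TMM, the median of all genes moved from 0.01 to −0.08. The log2 fold changes of MALAT1 and KCNQ1OT1 then became −0.10 and −0.09, within their SE, while the sign of the other 4 fold changes was kept. Directions within single pairs were less stable. The log2 ratio of NEAT1 in pair 1 turned from 0.062 to −0.028, and that of TUG1 in pair 2 from 0.085 to −0.015.

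**Figure D2:**
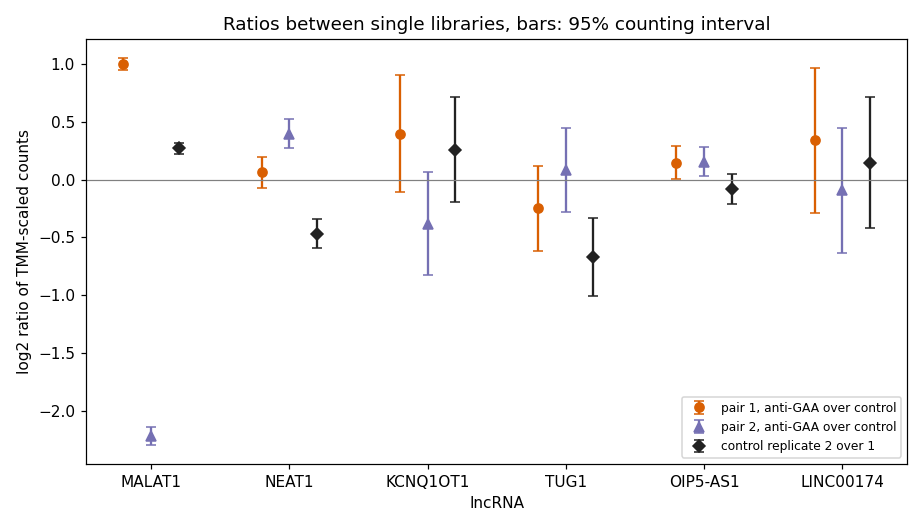
Log2 ratio of TMM-scaled counts between single libraries, with exact 95% counting intervals as bars. Circles are anti-GAA over control in pair 1, triangles the same in pair 2, and diamonds control replicate 2 over control replicate 1. MALAT1 lies at 1.00 in pair 1 and −2.21 in pair 2, outside the range of the other lncRNAs.

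Per kilobase of annotated exon (GENCODE 44, which is not the annotation used for counting), the control levels differed by orders of magnitude. MALAT1 led with 38.4 ± 5.07 CPM per kb (SD, n = 2), followed by NEAT1 with 2.79 ± 0.633 and OIP5-AS1 with 2.601 ± 0.103, which did not differ beyond their spread. TUG1 followed with 0.932 ± 0.299, then LINC00174 with 0.295 ± 0.0205 and KCNQ1OT1 with 0.0572 ± 0.00728, whose exon length of 92625 nt is the greatest of the 6. The exon length joins all annotated transcripts of a gene. For OIP5-AS1 it is 22370 nt, although its longest transcript has 8881 nt, so its closeness to NEAT1 depends on the length used. In the anti-GAA libraries the levels were 39.4 ± 42.9 for MALAT1, 3.23 ± 0.208 for NEAT1 and 2.89 ± 0.102 for OIP5-AS1, and the order of the 6 was kept in the means. In anti-GAA replicate 2 on its own, MALAT1 stood at 9.05 CPM per kb, still above NEAT1 at 3.09.

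Across all 15116 tested genes, edgeR's quasi-likelihood test called 0% at an adjusted p under 0.05 (0 genes, smallest adjusted p = 0.671), while 523 genes lower and 154 higher had an unadjusted p under that limit. DESeq2 called 3 genes, all lower. A block for the replicate number brought the edgeR calls to 207 lower (1.37%) and 51 higher (0.337%), in a fit with only 1 residual degree of freedom. None of the 6 lncRNAs was called in any of these fits.

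Genes that share the library pattern of MALAT1 were looked for among genes averaging 5 CPM or more, by the root mean square difference of their log2 CPM, centred on the gene's mean, over the 4 libraries. The 5 closest were HSP90AA2P (0.240), a pseudogene known by its identifier ENSG00000237493 (0.269), DNAJC2 (0.306), KNOP1 (0.369) and HSP90AA3P (0.377). HSP90AA2P and HSP90AA3P are processed pseudogenes of the chaperone gene HSP90AA1 and may share reads with it, so their counts are uncertain. DNAJC2 encodes a ribosome-associated co-chaperone. HSP90AA2P stood at 93.0 and 109.9 CPM in the control libraries and at 135.2 and 27.6 CPM in the anti-GAA libraries, and DNAJC2 at 45.4, 33.7, 57.5 and 10.5 CPM in the same order. All 5 were thus at least 2-fold lower in pair 2 and higher in pair 1. The transcripts of HSP90AA2P, HSP90AA3P and KNOP1, 3 of the 5, held unbroken GAA runs of 16, 16 and 12 nt. In those of ENSG00000237493 and DNAJC2 the longest run was 8 nt. MALAT1 held none of 12 nt or more, and 3.21% of tested genes with a transcript sequence held one. HSP90AA2P and HSP90AA3P derive from the same gene and are not separate cases, so no enrichment is read from this count.

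**Figure D3:**
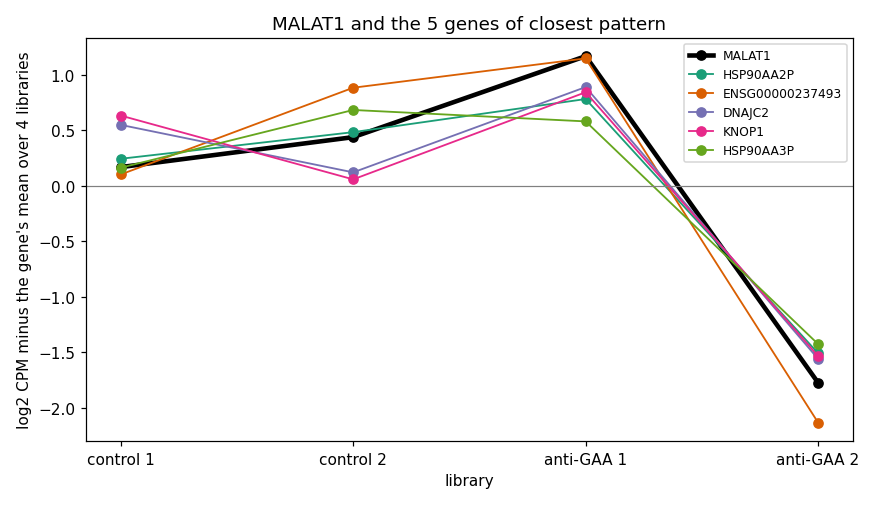
Log2 CPM of MALAT1 (thick line) and of the 5 genes closest to it, each minus the gene's mean over the 4 libraries, in the control and anti-GAA libraries. All 6 lines fall to their lowest point in anti-GAA replicate 2, where HSP90AA2P stands at 27.6 CPM and MALAT1 at 94.4 CPM, and lie above their mean in the other 3 libraries.

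The closest genes of the other lncRNAs were nearer to them, because those lncRNAs varied less. For NEAT1 they were RPL32P18, SBF2-AS1 and TMEM87A, with differences of 0.00971 to 0.0127, and for KCNQ1OT1 they were CISH, DMTN and LINGO1 (0.0176 to 0.0395). For TUG1 they were SCRN2, MANBAL and CCDC57 (0.00525 to 0.0223), for OIP5-AS1 they were ETF1, MED17 and SLC7A2 (0.00733 to 0.00992), and for LINC00174 they were FLCN, PARD3 and TRAPPC2 (0.0133 to 0.0157). Likeness over 4 libraries is a description and says nothing of shared control. Among the lncRNAs themselves, MALAT1 lay 0.915 to 1.11 away from each of the others, which lay within 0.104 to 0.331 of one another.

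How close a transcript comes to the ASO target was then set beside its ratio in each pair. The 1452 tested genes with 16 matches and no run of 12 nt, the class to which MALAT1 belongs, had a median log2 ratio of −0.01 in pair 1 and −0.03 in pair 2, and 5.51% of them were at least 2-fold lower in pair 2. The 635 genes with 17 matches, as in KCNQ1OT1, had medians of −0.03 and −0.08. The 4367 genes with 14 matches, as in TUG1 and LINC00174, had medians of −0.01 and 0.04, and the 3144 genes with 15 matches, as in NEAT1 and OIP5-AS1, had medians of −0.02 and 0.01. The 384 genes with 18 matches or more had medians of −0.14 and −0.22. Of them, 9.90% were at least 2-fold lower in pair 2, against 4.29% of all genes with a transcript sequence. In pair 1 these shares were closer, at 4.95% and 3.82%. The classes were not matched for transcript length. The log2 ratios of MALAT1, 1.00 and −2.21, had been used to select it, so nothing is read from their distance to the median of its class.

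RNAs without a poly(A) tail were examined because MALAT1 lacks one and the sources differ on the library kit. Of the 26 such RNAs listed, 17 were matched and 8 were tested. None passed the test, 6 had a log2 fold change above 0 and 2 below, and the median was 0.33 against 0.01 over all genes. That median rested on single libraries, as it was −0.28 without anti-GAA replicate 1, 0.04 without control replicate 2, 0.58 without anti-GAA replicate 2 and 0.72 without control replicate 1. The histone genes in the list summed to 3122 and 2090 CPM in the replicate 1 libraries (anti-GAA, then control) and to 917.4 and 449.1 CPM in the replicate 2 libraries. Most of these reads came from H4C3, a replication-dependent histone gene, at 2002 and 351.2 CPM in the control libraries and 3013 and 839.3 CPM in the anti-GAA libraries. Under a replicate block H4C3 was called higher, with a log2 fold change of 0.92 (SE 0.18, edgeR adjusted p = 0.0199). That fit has only 1 residual degree of freedom, and without the block H4C3 had 0.71 (SE 0.83, edgeR adjusted p = 0.9965). H1-4 had the highest value of the list, at 1.07 (SE 0.86), and H2BC4 the lowest, at −0.30 (SE 0.38). The histone sum was lower in both replicate 2 libraries, which was not so for MALAT1. Single histone genes differed, and H1-2, a linker histone, had the library order of MALAT1 with 72.5 and 86.8 CPM in the control libraries and 87.7 and 66.9 CPM in the anti-GAA libraries. The part that capture of RNAs without a poly(A) tail had in the MALAT1 values was not tested.

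The proteins that assemble around these RNAs were compared next. Of 26 tested paraspeckle proteins, 16 had a log2 fold change above 0 and 10 below, none passed the test, and the median was 0.04. SFPQ and NONO, which coat NEAT1, had values of 0.02 (SE 0.19) and 0.21 (SE 0.20). PSPC1, their partner, had −0.31 (SE 0.20), standing at 30.1 CPM in both control libraries and at 23.1 and 25.3 CPM in the anti-GAA libraries. RBM14, which is needed for paraspeckles to form, had the highest value, 0.55 (SE 0.20, edgeR adjusted p = 0.9965 and 0.0629 with the block). It stood at 50.6 and 46.4 CPM with the control ASO and at 74.3 and 68.2 CPM with the anti-GAA ASO, so its groups did not overlap. Both anti-GAA libraries lay above both controls for 7 of the 26 paraspeckle proteins (26.9%), RBM14 included, beside 15.5% of all tested genes. They lay below both controls for 4 of the 26 (15.4%), PSPC1 included, beside 16.9% of all tested genes. Among the 28 nuclear speckle proteins these counts were 3 and 4. After RBM14, HNRNPUL1 (0.42) and CPSF7 (0.33) had the next highest log2 fold changes. MATR3 (−0.39) and AKAP8L (−0.29, from only 12 to 34 counts per library) stood at the other end.

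Of 28 tested nuclear speckle proteins, 11 had a log2 fold change above 0 and 17 below, none passed the test, and the median was −0.08. SON and SRRM2, which form the core of speckles, had −0.09 (SE 0.28) and −0.18 (SE 0.20). RBM25, a splicing factor, had the lowest value, −0.90 (SE 0.56). It stood at 167.1 and 258.8 CPM in the control libraries and at 181.7 and 48.2 CPM in the anti-GAA libraries, so that, like MALAT1, it was lowest in anti-GAA replicate 2 and not lowered in pair 1. RBM25 was the 1 gene with at least 100 CPM that lay lower than MALAT1 in pair 2, with a log2 ratio of −2.42, and it holds a GAA run of 13 nt. PRPF4B (−0.51) and BCLAF1 (−0.42) were next lowest, and THRAP3 (0.42), DDX39B (0.41) and U2AF1 (0.36) were highest. DDX39B had only 29 to 43 counts per library and an SE of 0.55.

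Factors that form RNA 3′ ends or decay RNA in the nucleus include RNase P, which cuts MALAT1, and the exosome. Of 30 tested, 20 had a log2 fold change above 0 and 10 below, none passed the test, and the median was 0.08. EXOSC3, an exosome subunit, and RPP40, an RNase P subunit, had 0.42 (SE 0.20) and 0.38 (SE 0.20). ZFC3H1 followed at 0.21 (SE 0.57), from only 20 to 31 counts per library. RPP21, another RNase P subunit, had −0.24 (SE 0.46), MTREX, the helicase of the nuclear exosome, −0.23 (SE 0.21), and DIS3, an exosome nuclease, −0.20 (SE 0.23). The sign of this list's median turned under total count scaling, at −0.02.

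Of 12 genes listed for the imprinted domain around KCNQ1OT1, 9 were tested, and which of them it silences in this line was not measured. Values above 0 were found for 4 and below 0 for 5, none passed the test, and the median was −0.02. CDKN1C, a cell cycle inhibitor and a known target of this silencing, stood at 32.3 and 64.5 CPM in the control libraries and at 31.3 and 86.3 CPM in the anti-GAA libraries, a log2 fold change of 0.29 (SE 0.51). TSSC4 had 0.25 (SE 0.36) and PHLDA2, a placental growth regulator, 0.15 (SE 0.22). SLC22A18AS (−0.46), OSBPL5 (−0.20) and NAP1L4 (−0.04) were lowest. KCNQ1, from whose gene KCNQ1OT1 is transcribed on the opposite strand, had −0.02 (SE 0.45), with ratios in the directions of KCNQ1OT1 in both pairs. The strand setting of the counting is not given in the sources used here, so reads of this overlapping pair, and of OIP5 with OIP5-AS1, may not be separated.

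Other lncRNAs were set beside the 6. Of 13 further lncRNAs known as nuclear, 10 were matched and 5 tested, with a median of −0.09, and none passed the test. LINC-PINT had the highest value, 0.50 (SE 0.28), at 6.72 and 6.90 CPM in the control libraries and 8.59 and 10.6 CPM in the anti-GAA libraries, followed by DLEU2 at 0.06. CDKN2B-AS1 had −0.26, FIRRE −0.09 and CHASERR −0.09, of which CDKN2B-AS1 had only 8 to 16 counts per library and FIRRE 6 to 12. All 6 lncRNAs known as cytoplasmic were tested, with a median of −0.06, 3 values on each side of 0 and none past the threshold. EPB41L4A-AS1 (−0.41), H19 (−0.24) and CYTOR (−0.16) were lowest, and TINCR (0.26), DANCR (0.21) and NORAD (0.04) highest. In the edgeR fit without a block, no gene of the 7 lists had an adjusted p below 0.9965, and 1 gene each, RBM14 higher and PRPF4B lower, had an unadjusted p under 0.05.

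Among all 1341 tested lncRNA genes the median log2 fold change was 0.09, and 43.7% lay below 0, against a median of 0.01 and 48.3% for the 12179 protein-coding genes. The 6 followed here, with values from −0.11 to 0.21, lay around the lncRNA median. TUG1 is annotated as protein-coding in GENCODE 44 and is counted there. A rise in pair 1 with a fall in pair 2 was seen in 20.4% of lncRNA genes and 17.4% of protein-coding genes. Within single pairs, lncRNA genes spread more widely than protein-coding genes. The SD of the log2 ratio was 0.714 against 0.457 in pair 1 and 0.69 against 0.479 in pair 2. Between the control libraries it was wider as well, at 0.683 against 0.541, and the sets were not matched for level.

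The genes around each lncRNA were examined last. Within 100 kb of the 6 lie 50 other genes that were counted, members of the 6 included, of which 26 were tested. The edgeR test called none of them, with or without the replicate block. Of the 26, 14 had a value above 0 and 12 below, beside 48.4% of all tested genes below 0. A rise in pair 1 with a fall in pair 2 was seen in 8 of them, beside 17.7% of all tested genes. MALAT1, which was chosen for this pattern, is among the 8 as a neighbour of NEAT1, so nothing is read from that count. MALAT1's 10 tested neighbours, on chromosome 11 (gene at 65497640 to 65508073), ranged from −0.34 for FRMD8 (SE 0.28) to 0.21 for NEAT1. Their ratios lay between −0.34 and 0.30 in pair 1 and between −0.33 and 0.40 in pair 2, so none moved as far as MALAT1. LTBP3 had −0.22 (SE 0.22), EHBP1L1 −0.14, FAUP4 −0.07, FAM89B 0.03, ZNRD2 0.10, MAP3K11 0.13 and KCNK7 0.19. NEAT1 shares FRMD8, FAUP4 and LTBP3 with MALAT1 and, with its own gene at 65422774 to 65445540, adds DPF2 (0.17) and TIGD3 (−0.21).

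TUG1 had 3 tested neighbours on chromosome 22 (gene at 30969245 to 30979395), and all had values below 0. MORC2, a chromatin-remodelling ATPase whose gene starts 471 nt from TUG1 on the opposite strand, had −0.62 (SE 0.27), standing at 25.9 and 26.0 CPM in the control libraries and at 20.5 and 13.3 CPM in the anti-GAA libraries. SMTN had −0.60 (SE 0.27) and OSBP2 −0.41 (SE 0.25). Both anti-GAA libraries lay below both controls for these 3, as they did for 16.9% of all tested genes, whereas the groups of TUG1 overlapped. The 5 tested neighbours of OIP5-AS1 on chromosome 15 (gene at 41283958 to 41322392) all had values above 0, while 48.4% of all tested genes lay below 0. The values ran from 0.17 for RTF1 (SE 0.31) to 0.34 for OIP5 (SE 0.49), with NDUFAF1 at 0.18, CHP1 at 0.22 and NUSAP1 at 0.24 (SE 0.19). RTF1 was lower in pair 2, with a log2 ratio of −0.44, and OIP5 had only 10 to 17 counts per library. LINC00174, on chromosome 7 (gene at 66376044 to 66493566), had 4, with LINC03011 at 0.44 (SE 0.30), SKP1P1 at 0.36, RABGEF1P1 at −0.02 and TPST1 at −0.22. KCNQ1OT1, on chromosome 11 (gene at 2597308 to 2700003), had KCNQ1 as its only tested neighbour.

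**Figure D4:**
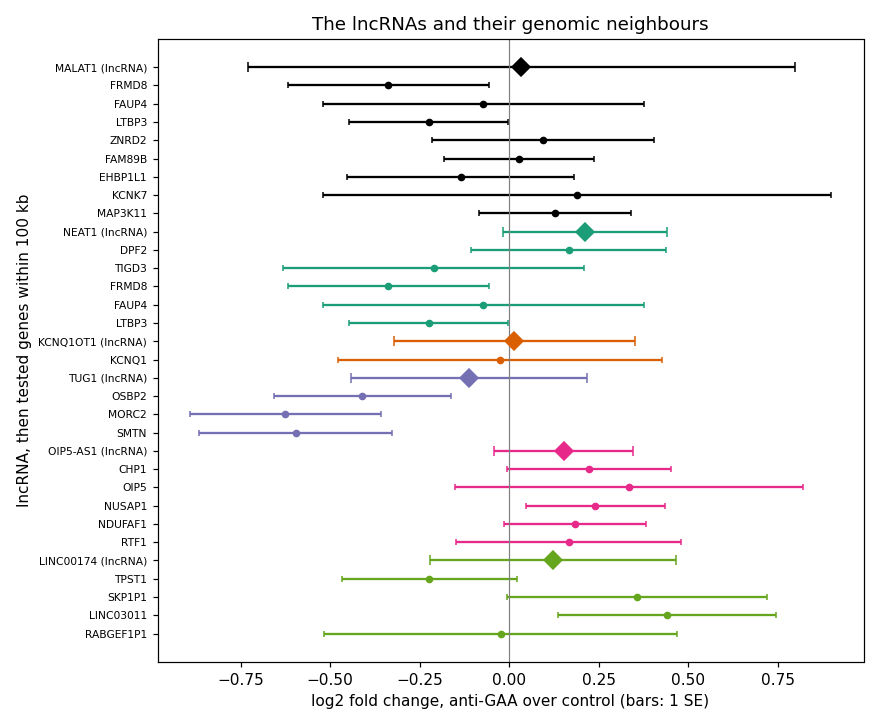
Log2 fold change, anti-GAA over control, of each lncRNA (diamond) and of tested genes within 100 kb of it (dots of the same colour), with bars of 1 SE from edgeR. FRMD8, FAUP4 and LTBP3 appear under both MALAT1 and NEAT1. The bar of MALAT1, with an SE of 0.76, is wider than that of any neighbour, and the TUG1 neighbours MORC2, SMTN and OSBP2 lie from −0.62 to −0.41.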

How the data were processed

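RNA of HCT116 cells was sequenced in 4 libraries, 2 per ASO. The authors aligned reads with STAR to hg19 (GRCh37 is also named) and counted them per gene with featureCounts, per the submitters' processing notes. The values they deposited are raw counts per gene for 63677 genes, and 0 columns of per-sample values were left unused. The strand setting is not given in the sources used here. Genes kept by filterByExpr (15116) were fitted with edgeR 4.0.16 (R 4.3.3) by TMM, the quasi-likelihood test and Benjamini-Hochberg adjustment, ASO being the single term, and checked on simulated counts that varied less than these libraries. Log2 fold changes are anti-GAA over control. Ratios within a pair are of TMM-scaled counts with exact 95% intervals (scipy 1.17.1), and those compared over all genes use a prior count of 2. Depth was 10538284 to 17894953 counts. Symbols, neighbours and sequences come from GENCODE 44 on GRCh38, joined by Ensembl identifier (52181 matched), and no position was carried over from hg19.

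The lncRNAs, lists and tests were chosen with earlier results of these data known. Genes named are the 6 lncRNAs, up to 3 extremes of each list at each end, any gene past the threshold, tested neighbours within 100 kb (1 is not reported here), and the closest genes in pattern (5 for MALAT1, 3 for each other). SFPQ, NONO, H1-2, SON and SRRM2 lie outside that rule and were picked with values in view. Alternatives were DESeq2 1.42.0, its size factors, scaling by totals, dropping the filter, a filter on a mean of 1 CPM, the replicate block and leaving out each library.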

Additional observations from a re-analysis of the deposited data

How the results depend on the processing

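The 2 libraries per ASO limit every comparison, and leaving out 1 leaves a lone library that is assumed to vary like the other group. Depth limits KCNQ1OT1, LINC00174 and TUG1. The count of genes called lower, 0 in the reported fit, was 3 with DESeq2, 111 without a filter and 207 with the replicate block, and 0 to 16 without single libraries (16 without control replicate 1). The count called higher, also 0, was 5 without a filter, 51 with the replicate block and 0 to 3 without single libraries. Libraries of the same number deviated together (r = 0.564 over genes), but with 2 pairs and no label for the numbers they were not treated as pairs. With the replicate block the log2 fold change was −0.60 for MALAT1, 0.23 for NEAT1, −0.01 for KCNQ1OT1, −0.08 for TUG1, 0.15 for OIP5-AS1 and 0.11 for LINC00174, and the median of the KCNQ1OT1 domain turned to 0.02. The cause of these shifts was not tested.

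Without single libraries the log2 fold change ranged from −2.08 to 0.86 for MALAT1, 0.006 to 0.456 for NEAT1, −0.25 to 0.27 for KCNQ1OT1, −0.40 to 0.25 for TUG1, 0.12 to 0.19 for OIP5-AS1 and −0.02 to 0.28 for LINC00174. The value of OIP5-AS1, whose pairs differ little, was 0.16 with DESeq2, 0.16 with its size factors, 0.058 with total counts, 0.14 without a filter and 0.14 with a mean of at least 1 CPM. The MALAT1 ratio with total counts was 0.91 in pair 1 and −2.31 in pair 2.

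With total counts, list medians were −0.17 for nuclear speckle proteins, −0.021 for 3′ end factors, −0.18 for other nuclear lncRNAs, −0.16 for cytoplasmic lncRNAs and 0.24 for RNAs without a poly(A) tail. With a mean of at least 1 CPM, that of other nuclear lncRNAs was 0.052. Without single libraries the medians ranged from −0.02 to 0.12 for paraspeckle proteins, −0.146 to 0.092 for nuclear speckle proteins, −0.094 to 0.261 for 3′ end factors, −0.14 to −0.03 for the KCNQ1OT1 domain, −0.14 to 0.10 for other nuclear lncRNAs, −0.27 to 0.21 for cytoplasmic lncRNAs and −0.28 to 0.72 for RNAs without a poly(A) tail. Counting members with a GAA run in the gene body in place of the transcript left the count at 0.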
